A study of Mus musculus with 12 samples.

Results

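The Hedgehog pathway genes examined here were 9 genes set by name: the ligands Shh, Ihh and Dhh, the receptor Ptch1, the signal transducer Smo, the transcription factors Gli1, Gli2 and Gli3, and the kinesin Kif7. All 9 were found among the 22380 protein-coding genes and 37310 genes of the GENCODE M1 annotation of the mouse genome assembly mm9. Each gene was set against the list of BRG1-binding regions of wild-type cardiac precursors (CPs): at its promoters (1 kb either side of an annotated transcription start site, TSS), in its body, and within 100 kb of either end. BRG1 regions lay at the promoters of Ptch1, Smo and Gli3, and each of these regions spanned a TSS. Kif7 had a region in its body and another close upstream, and Dhh had a region within 100 kb, at the promoter of another gene. No region was listed within 100 kb of Shh, Ihh, Gli1 or Gli2.

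The study asked where BRG1, the ATPase of the BAF chromatin remodeling complex, sits in the genome while mouse embryonic stem cells become heart muscle. W4/129S6 embryonic stem cells were grown as embryoid bodies with VEGF, Activin and BMP4, then as a monolayer with FGFs, giving CPs and later cardiomyocytes. Of the 12 libraries, 2 BRG1 ChIPseq libraries and 1 input DNA library came from wild-type CPs and stand behind the list, and the other 9 (wild-type cardiomyocytes, CPs and cardiomyocytes lacking BAF170, cardiomyocytes lacking BAF60c) were not analysed here. The list gives positions without height, P-value or value per library, so no spread between replicates can be attached to any value, the depth is unknown, and the labelled cell type was not checked against marker expression. All cells derive from 1 embryonic stem cell background, and differences between the Hedgehog genes below are differences in position within 1 list.

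Hedgehog ligands are secreted proteins that bind Ptch1 on the receiving cell. Unbound Ptch1 holds Smo inactive; ligand binding frees Smo, which acts at the primary cilium, where Kif7 and Gli proteins gather. Gli2 then acts mainly as an activator and Gli3 mainly as a repressor of target genes, while Gli1 and Ptch1 are themselves transcribed in response to the pathway. In the embryo, Hedgehog signals pattern the limb and the neural tube and take part in septation of the heart.

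The sequences below are parts of BRG1 regions near the Hedgehog genes, written 5′ to 3′ on the strand of the gene. They are shown because Ptch1, Smo and Gli3, which had promoter regions, were all CpG-rich around the first TSS, and capitals mark each CpG. The Ptch1 stretch comes from its inner region, away from the first TSS, and the promoter there was not classed for CpG. The Kif7 stretches are the whole upstream region and the whole coding region.
Ptch1, upstream of the RefSeq start, mm9 chr13:63667044-63667205, minus strand: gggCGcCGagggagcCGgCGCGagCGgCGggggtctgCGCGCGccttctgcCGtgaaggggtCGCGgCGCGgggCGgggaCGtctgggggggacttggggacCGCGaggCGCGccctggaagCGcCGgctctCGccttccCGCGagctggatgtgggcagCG
Smo, upstream of the RefSeq start, mm9 chr6:29685426-29685496, plus strand: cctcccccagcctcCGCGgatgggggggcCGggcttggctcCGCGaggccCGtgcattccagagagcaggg
Gli3, upstream of the first TSS, mm9 chr13:15554886-15555067, plus strand: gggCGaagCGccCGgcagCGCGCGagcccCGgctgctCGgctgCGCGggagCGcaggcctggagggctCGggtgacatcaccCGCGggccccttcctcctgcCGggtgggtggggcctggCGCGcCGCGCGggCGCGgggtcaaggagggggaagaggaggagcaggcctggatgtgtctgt
Kif7, upstream region, mm9 chr7:86860666-86860765, minus strand: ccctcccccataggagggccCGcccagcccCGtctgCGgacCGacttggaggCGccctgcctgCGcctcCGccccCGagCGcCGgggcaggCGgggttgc
Kif7, region in exon 4, mm9 chr7:86855026-86855265, minus strand: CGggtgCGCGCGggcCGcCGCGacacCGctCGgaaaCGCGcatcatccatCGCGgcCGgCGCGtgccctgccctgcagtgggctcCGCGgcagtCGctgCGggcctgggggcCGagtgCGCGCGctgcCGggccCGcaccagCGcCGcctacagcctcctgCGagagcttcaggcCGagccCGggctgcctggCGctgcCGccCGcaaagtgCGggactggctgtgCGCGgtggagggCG
The upstream sequences of Gli2 and Shh, where no region was listed, are given for contrast, with CpGs in capitals again.
Gli2, upstream of the first TSS, mm9 chr1:120950197-120950346, minus strand: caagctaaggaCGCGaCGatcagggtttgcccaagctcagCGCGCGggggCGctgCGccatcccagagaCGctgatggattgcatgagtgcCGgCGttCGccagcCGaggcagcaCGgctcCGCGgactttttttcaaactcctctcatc
Shh, upstream of the first TSS, mm9 chr5:28793642-28793791, minus strand: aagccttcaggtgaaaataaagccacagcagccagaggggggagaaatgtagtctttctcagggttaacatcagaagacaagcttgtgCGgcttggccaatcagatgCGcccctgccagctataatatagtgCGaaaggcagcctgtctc
The 162 bases at Ptch1 held 27 CpGs, the 182 bases at Gli3 held 22 and the 71 bases at Smo held 6. The 150 bases upstream of Gli2 held 16 CpGs and those upstream of Shh held 3, so that an upstream sequence dense in CpGs stood at a gene without a region as well.

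A region at a promoter was listed for 3 of the 9 Hedgehog genes, where 2667 of all 22380 protein-coding genes, or 11.9%, had one (95% Wilson interval 11.5% to 12.35%, counting error only). A region that spanned a TSS was also listed for 3 of 9, against 6.43% of protein-coding genes. A region in the gene body, promoter-proximal bases included, was listed for 4 of 9 (Ptch1, Smo, Gli3 and Kif7), against 12.3%. Within 100 kb a region was listed for 5 of 9, against 40.3%. With 9 genes, 1 gene more or fewer moves these counts a good deal, and no test was made on them. In all, 9 distinct regions on 17 rows of the list lay within 100 kb of the members, and 4 of them were at member promoters.

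**Figure D1:**
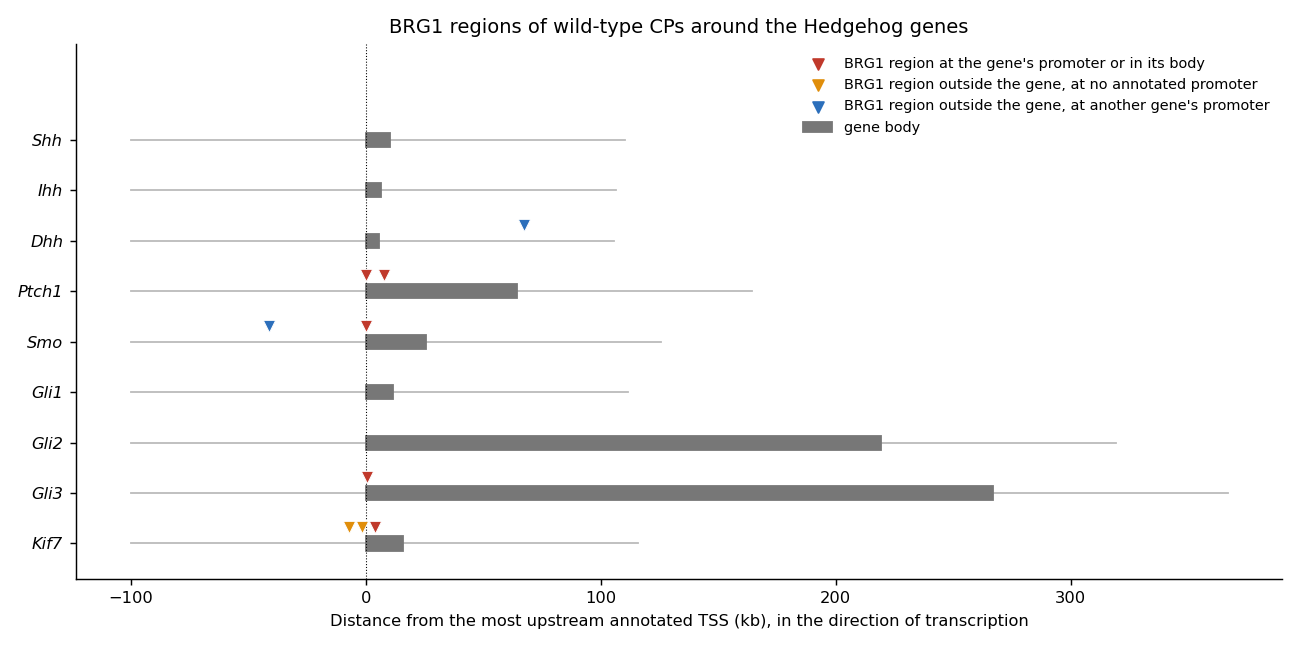
BRG1 regions (triangles) around each of the 9 Hedgehog genes, with the distance in kb from the most upstream annotated TSS in the direction of transcription on the x axis, grey bars for gene bodies and thin lines for the 100 kb on either side. Triangles sit at the start of Ptch1, Smo and Gli3 and on both sides of the start of Kif7, while the lines of Shh, Ihh, Gli1 and Gli2 carry none.

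Promoters rich in CpG (here a GC content of at least 55% and a CpG observed/expected ratio of at least 0.6 in the 2001 bp around the first TSS) carried regions more often in the list as a whole: 35.6% of the 4553 CpG-rich protein-coding genes had a promoter region, against 5.87% of the other 17827. Of the members, Ihh, Ptch1, Smo, Gli2 and Gli3 were CpG-rich, and 3 of these 5 had a promoter region. None of the 4 others, Shh, Dhh, Gli1 and Kif7, had one under the GENCODE annotation. The 3 members with a promoter region lay within the CpG-rich class, and Ihh and Gli2 were CpG-rich members without a region. Ihh had the highest GC content of the 9 windows, at 64.7%, with a CpG ratio of 0.757. Gli3 had 63.4% and the highest ratio, 0.885. Smo had 62.1% and 0.665, Ptch1 60.9% and 0.683, and Gli2 59.2% and 0.674. The CpG ratio of the Gli2 window, without a listed region, thus lay between those of the Smo and Ptch1 windows. Among the other members the ratios were lower, at 0.478 for Gli1, 0.407 for Shh, 0.394 for Dhh and 0.216 for Kif7. The Kif7 window lay at the GENCODE TSS, and its RefSeq start lay upstream, outside this window, and was not classed. At 1600 bp upstream of the GENCODE TSS, the bases within 100 bp either side had 79.1% GC and 26 CpGs.

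**Figure D2:**
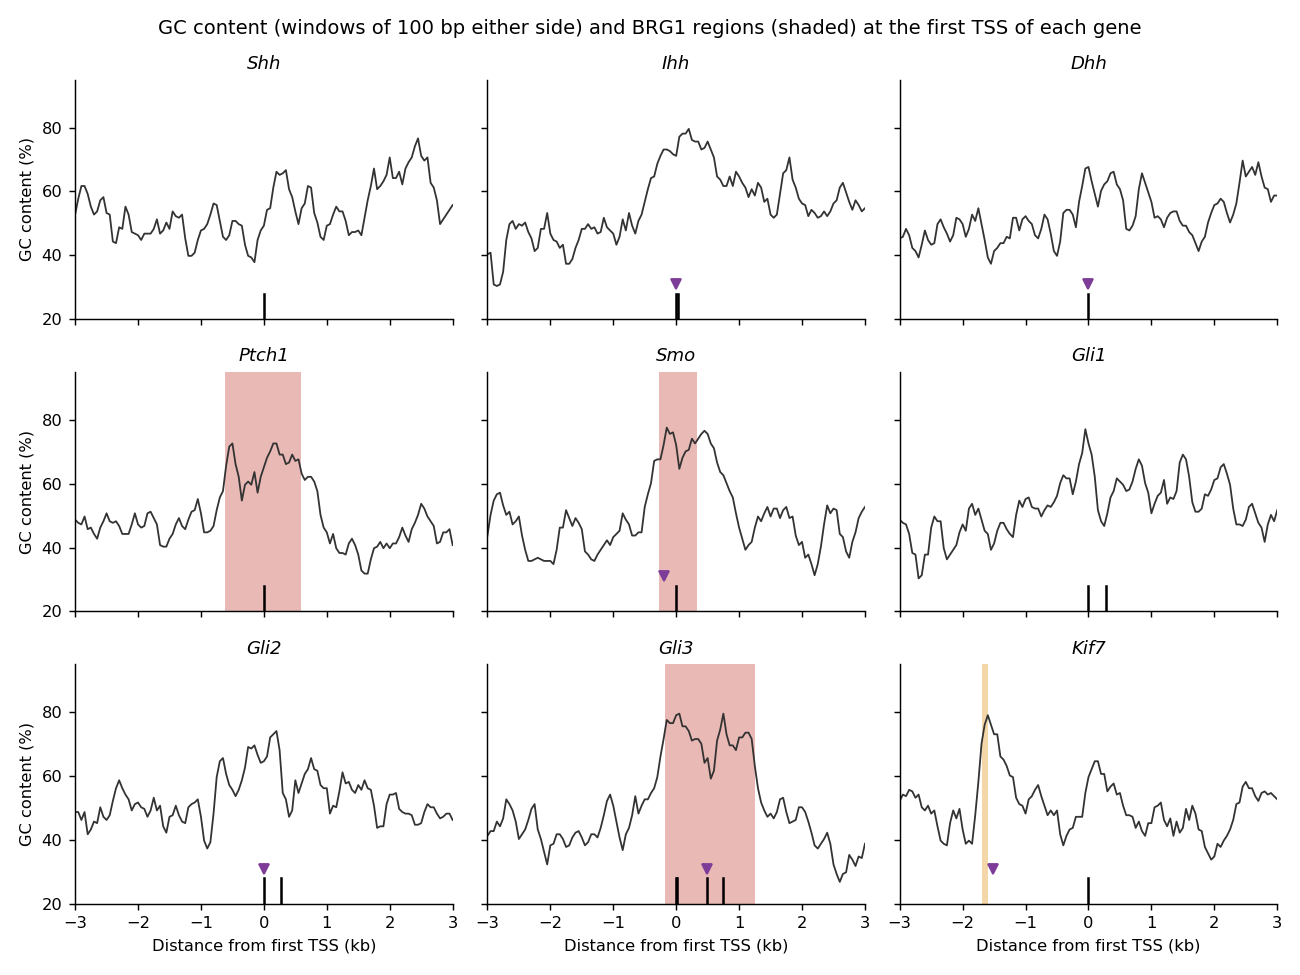
GC content in percent, in windows reaching 100 bp either side of each point, within 3 kb of the first annotated TSS of each Hedgehog gene, with BRG1 regions shaded (red at a promoter, yellow outside it), black ticks for GENCODE TSSs and purple triangles for RefSeq starts. The shaded regions of Ptch1, Smo and Gli3 cover all or part of the GC-rich stretch at the TSS, Ihh and Gli2 have such a stretch without a region, and the region of Kif7 lies on a GC peak upstream of the GENCODE TSS.

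Ptch1 (ENSMUSG00000021466), the Hedgehog receptor and itself a target of the pathway, lies on chromosome 13 from 63610261 to 63674474 on the minus strand and has 4 annotated TSSs. It had 2 regions at its promoters. The distal region, from 63673886 to 63675085, was 1200 bp wide, was on 2 rows and reached from 611 bp upstream to 588 bp downstream of the TSS at 63674474, over coding and UTR sequence of exon 1. The inner region, from 63665886 to 63667205, was 1320 bp wide, was also on 2 rows and reached from 377 bp upstream to 942 bp downstream of the TSS at 63666828. The RefSeq start placed in mm9 at 63667043 lay inside this inner region as well. A further annotated TSS, at 63665634, lay outside the inner region but within 1 kb of it, so the region was at that promoter too. Of all protein-coding genes, 51, or 0.228%, had 2 or more regions at promoters; among the 12523 genes with 2 or more TSS positions the share was 0.407%. Both Ptch1 regions were wide, at percentiles 92.6 and 94.8 of the distinct regions at promoters. Their GC content was on the low side of promoter regions, at 66.25% for the distal and 67.3% for the inner region, where the median was 74.1%.

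The GLI word GACCACCCA, letters that GLI proteins are known to bind, was searched on both strands in all regions, and a match is a description of letters and not a binding site. It occurred in 12 of 3473 distinct regions, or 0.346%, in 11 of 2566 promoter regions, or 0.429%, and in 7 of the 318 promoter regions of 1 kb or more, or 2.2%. In 2001 bp windows around the first TSS of all protein-coding genes it occurred in 1.68%. In the regions near the Hedgehog genes it occurred once, in the distal Ptch1 region, upstream of the TSS. The other 11 regions with the word were promoter regions of Fbxl20, Gpatch8, Zmiz1, Cxxc5, Kdm2a, Tcp11l1, Dnajc5, Mapkapk5, Gtf2ird1 and Arhgef5, and 1 region outside annotated genes. The inner Ptch1 region and the regions of Smo, Gli3 and Kif7 held neither the word nor a word 1 base away from it.

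Smo (ENSMUSG00000001761), the membrane protein that Ptch1 holds inactive, lies on chromosome 6 from 29685694 to 29711365 on the plus strand. Its promoter region, from 29685426 to 29686025, was 600 bp wide and on 1 row, and reached from 268 bp upstream to 331 bp downstream of the TSS. It also spanned the RefSeq start at 29685497. With 72.2% GC and a width at percentile 66.7, this region was nearer to the middle of promoter regions than those of Ptch1. Its CpG ratio of 0.688 was low among promoter regions, at percentile 8.67. A further region of 160 bp, 41.3 kb upstream, lay at the promoter of Tspan33, a tetraspanin gene.

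Gli3 (ENSMUSG00000021318), which in the absence of ligand is processed to a repressor of Hedgehog targets, lies on chromosome 13 from 15555068 to 15821859 on the plus strand. Its region, from 15554886 to 15556325, was the widest near the members at 1440 bp and spanned all 4 annotated TSSs, over UTR sequence of exon 1. It was on 6 rows of the list, where 39 of the 3473 distinct regions, or 1.12%, were on 6 or more and 77.2% were on 1. What a repeated row stands for is not given in the sources used here, and no value ties the number of rows to the strength of binding. In width it stood at percentile 96 of promoter regions, its GC content was 72.6% and its CpG ratio 0.962. No other region lay in the 266.8 kb body of Gli3 or within 1 Mb of the gene.

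Kif7 (ENSMUSG00000050382), a kinesin of the ciliary tip that controls Gli processing, lies on chromosome 7 from 86842985 to 86859072 on the minus strand. It had 3 regions within 100 kb. The region in its body, from 86855026 to 86855265, was 240 bp wide, lay 3.93 kb downstream of the TSS in coding exon 4 and had 78.3% GC. It overlapped the first exon of 9330171B17Rik, a gene on the opposite strand with its TSS at 86855257, so that the region is a promoter region of that gene. The upstream region, from 86860666 to 86860765, was 100 bp wide with 80.0% GC, and lay 1594 to 1693 bp upstream of the GENCODE TSS, just outside the promoter window of 1 kb. The RefSeq start of Kif7 was placed at 86860593, and the same region lay only 73 to 172 bp upstream of it. In windows reaching 100 bp either side, the GC content of the Kif7 locus peaked at 79.1%, 1600 bp upstream of the GENCODE TSS. Whether Kif7 counts as a gene with a promoter region therefore depends on the annotation. With RefSeq starts, which could be placed for 7 members (not Shh and Gli1), 4 had a promoter region, Ptch1, Smo, Gli3 and Kif7, against 12.2% of 16850 protein-coding genes. The remaining region, of 660 bp and 56.1% GC on 2 rows, lay 7.14 kb upstream in exon 9 of Plin1, which encodes a lipid droplet protein.

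**Figure D3:**
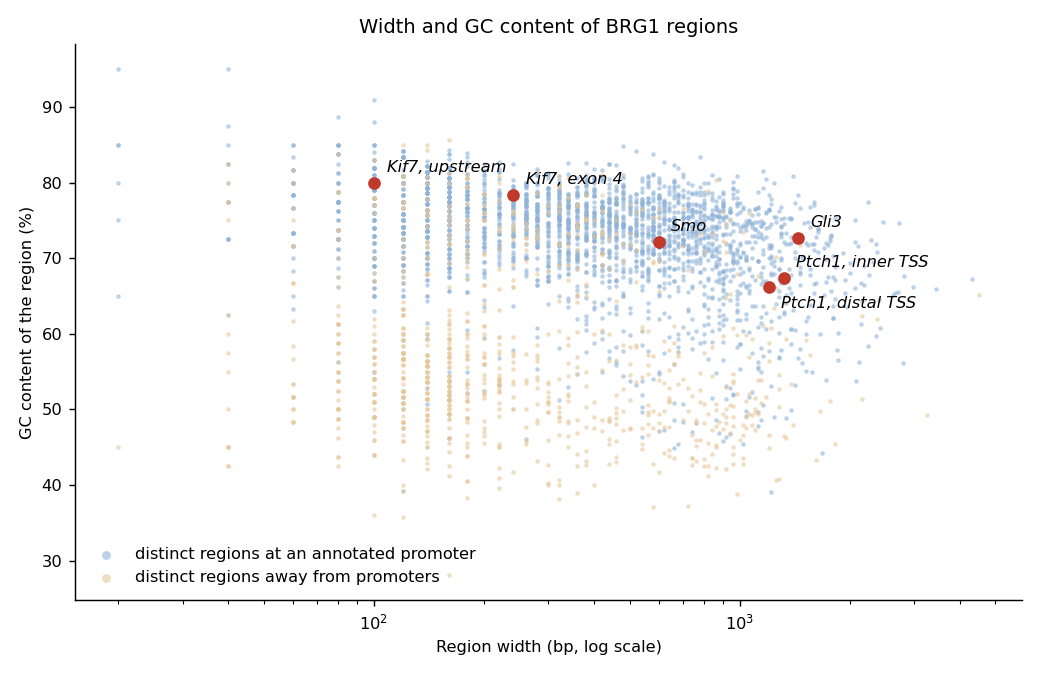
Width in bp (log scale) against GC content in percent of all 3473 distinct BRG1 regions, 2566 at an annotated promoter in blue and 907 elsewhere in yellow, with the regions at the promoters or within 5 kb of a TSS of the Hedgehog genes in red. The regions of Gli3 and Ptch1 lie among the widest, and those of Kif7 are narrow with a high GC content.

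Across the 6 regions at or close to member TSSs, widths ran from 100 bp to 1440 bp, with 3 of the 4 regions at member promoters above 1 kb. Over the whole list 12.4% of promoter regions reached 1 kb, and the median width was 420 bp at promoters and 200 bp elsewhere. The GC box GGGCGG, searched on both strands with overlapping matches counted, occurred in each of these 6 regions: 6 times at Gli3, 3 times in each Ptch1 region, once at Smo, once in Kif7 exon 4 and 2 times upstream of Kif7. It was common in the list, in 80.5% of promoter regions. The GATA word AGATAA (in 4.91% of promoter regions and 10.1% of all regions) and the T-box word AGGTGTGA (0.624% and 0.921%), which heart transcription factors are known to bind, occurred in none of the 9 regions near the members, nor in the 2001 bp window at the first TSS of any of the 9 genes. Such windows held the GATA word in 57.8% of protein-coding genes and the T-box word in 7.95%. These shares are over all protein-coding genes and were not matched to the members in GC content. The CCAAT box occurred once, in the region at Plin1, against 18.9% of promoter regions and 19.2% of all regions.

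The ligand genes had no region at their promoters or in their bodies. Shh (ENSMUSG00000002633), which occupies 28783355 to 28793641 of chromosome 5 (minus strand), encodes the ligand of limb and neural tube patterning. The region nearest to its TSS, 149.8 kb away and 480 bp wide, lay at the promoter of Rbm33, an RNA-binding protein gene downstream of Shh. The only other region within 1 Mb of Shh was an intergenic one of 80 bp, 665 kb upstream. Lmbr1, the upstream gene whose intron is known to house the limb enhancer of Shh, had 0 regions between its first and last base. Ihh (ENSMUSG00000006538), a ligand of cartilage growth, occupies 74991891 to 74998246 of chromosome 1 (minus strand), and the nearest region was 148 kb away in coding exon 4 of Wnt10a. Dhh (ENSMUSG00000023000), the ligand of Sertoli and Schwann cells, occupies 98723462 to 98728971 of chromosome 15 (minus strand), and its nearest region, 67.2 kb downstream of the TSS, was one of 160 bp at the promoter of Prkag1. Among members with a region within 100 kb, Dhh had the longest distance from its TSS to the nearest region midpoint. Among members without one, Ihh had the shortest such distance, whereas the limit of 100 kb was measured from the gene ends.

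Gli1 and Gli2 differed in position from Gli3. Gli1 (ENSMUSG00000025407), an activator transcribed in response to the pathway, occupies 126766945 to 126778645 of chromosome 10 (minus strand), and the nearest region was 176 kb away at the promoter of B4galnt1. Gli2 (ENSMUSG00000048402), the main activator, occupies 120730709 to 120950196 of chromosome 1 (minus strand) and has 3 annotated TSSs. No region lay in its body of 219.5 kb, where 299 of the 954 protein-coding genes of 200 kb or more, or 31.3%, had a body region. The nearest region, of 180 bp at the promoter of Ptpn4, was 784 kb from the Gli2 TSS and was the only one within 1 Mb. A gene without a listed region may be unbound or below the authors' threshold, and the list does not separate these. Repeated sequence, in which reads are lost, was measured at the promoters: at least 98.8% of the 75-base words in each 2001 bp window at a member TSS occurred once in mm9, and no window held unknown bases.

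Ranked by the distance from the nearest TSS to the nearest region midpoint, the members began with Ptch1, Smo and Gli3 at 0.0115, 0.0315 and 0.0495 kb. Among 22350 protein-coding genes these distances stood at percentiles 0.678, 1.58 and 2.25, with ties counted in part. Kif7, at 1.64 kb, stood at percentile 12.1, and Dhh at 30.5. Ihh, Shh and Gli1 stood at 47.3, 47.5 and 51.4, close to the middle of all genes, whose median was 166 kb with quartiles at 46.3 and 533 kb. Gli2 stood at 81.9, the farthest of the 9. The median of the members was 67.2 kb.

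**Figure D4:**
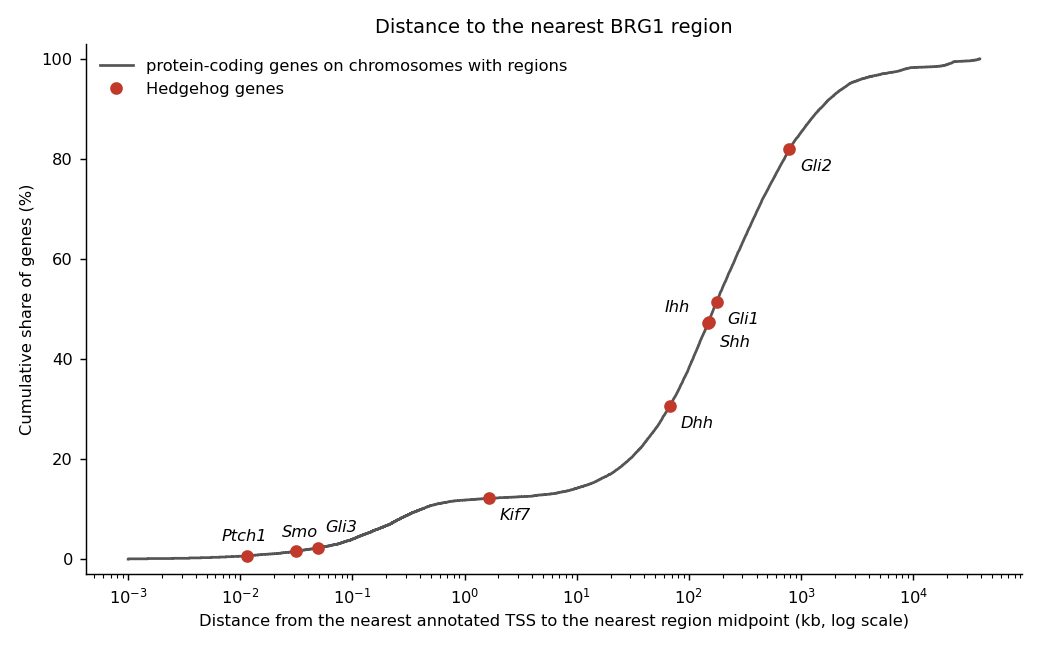
Distance in kb (log scale) from the nearest annotated TSS to the midpoint of the nearest BRG1 region on the x axis, against the cumulative share in percent of 22350 protein-coding genes, with the 9 Hedgehog genes in red. Ptch1, Smo and Gli3 lie at the lower left (percentiles 0.678 to 2.25, with ties counted in part). Shh, Ihh and Gli1 lie near the middle, and Gli2 lies to the right of the other members (percentile 81.9).

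The number of regions within 1 Mb of a member followed no common pattern, and ran from 1 around Gli2 and Gli3 to 12 around Ihh. Around Ihh, 10 of 54 protein-coding genes had a promoter region although Ihh had none. Around Gli1, 2 of 65 genes had one, and around Dhh 2 of 67. Around Smo it was 6 of 35, around Ptch1 3 of 17 and around Kif7 3 of 42, while Gli3 was the only one of the 7 genes in its stretch.

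Other genes of the pathway, listed by role, were counted in the same way. Of 66 further genes, 65 were found, 20 of these (30.8%) had a promoter region and 40 (61.5%) had one within 100 kb, beside the 11.9% and 40.3% of all protein-coding genes. Of these 65 genes, 32 were CpG-rich. Among 10 receptors and co-receptors, 5 were CpG-rich and 4 had a promoter region. Promoter regions were listed for 11.9% of all and 35.6% of CpG-rich protein-coding genes. The 4 genes, each of them CpG-rich, were Cdon (860 bp), Boc (600 bp), Gas1 (1620 bp, on 6 rows) and Lrp2 (380 bp). Cdon, Boc and Gas1 encode co-receptors of the ligands, and Lrp2 encodes an endocytic receptor. Hhip, which encodes a decoy receptor induced by the pathway, had no region within 100 kb, with the nearest at 194 kb. Of the genes best known as readouts of the pathway, Ptch1 thus had promoter regions and Gli1 and Hhip had none within 100 kb.

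Of the genes for processing and release of the ligands, 5 were found and 2 of these were CpG-rich. All 5 had promoter regions, beside 11.9% of all and 35.6% of CpG-rich protein-coding genes. They were Hhat (360 bp), which encodes the acyltransferase of the ligands, Disp2 (160 bp), a relative of the ligand exporter Dispatched, and Scube1 (1080 bp), Scube2 (280 bp) and Scube3 (760 bp), which encode secreted carriers. Of 30 cytoplasmic and ciliary regulators, 8 (26.7%) had a promoter region and 10 were CpG-rich, beside promoter regions in 11.9% of all and 35.6% of CpG-rich protein-coding genes. They were Sufu (140 bp), which encodes the protein that holds Gli factors in the cytoplasm, the kinase genes Adrbk1 (580 bp), Gsk3a (100 bp), Gsk3b (1380 bp), Csnk1a1 (140 bp) and Csnk1e (300 bp), Ift88 (140 bp), which encodes a ciliary transport protein, and Gnas (1580 bp), which encodes a G protein subunit.

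Of 20 genes known to respond to Hedgehog signals in some tissue, 15 were CpG-rich and 3 (15%) had a promoter region, close to the 11.9% of all protein-coding genes and below the 35.6% of CpG-rich ones. Within 100 kb, 9 of 20 (45%) had a region, beside 40.3% of all. The 3 genes were Foxc1, a forkhead factor gene, with a region of 2000 bp on 6 rows, the survival gene Bcl2 (640 bp), and Foxl1 (140 bp), which is annotated as a pseudogene in GENCODE M1. The cardiac gene Nkx2-5 had a region of 60 bp in its body, 1.99 kb from its TSS, Bmp4 one of 460 bp at 2.87 kb, and Foxc2 one of 920 bp at 1.59 kb. The nearest region to Hand2, a cardiac transcription factor gene, was 3312 kb away. Median distances were 0.0685 kb for ligand processing and release, 41.4 kb for the cytoplasmic and ciliary regulators, 122 kb for receptors and co-receptors and 129 kb for responsive genes, where the 9 Hedgehog genes had 67.2 kb.

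**Figure D5:**
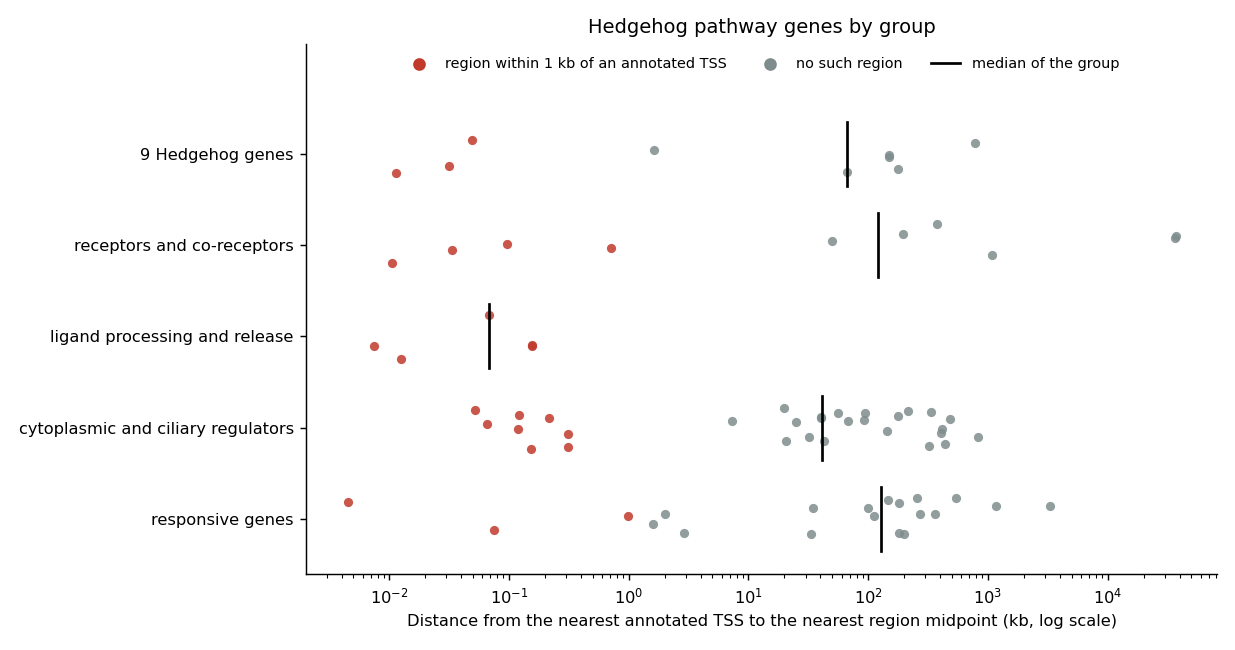
Distance in kb (log scale) from the nearest annotated TSS to the midpoint of the nearest BRG1 region for the 9 Hedgehog genes and the 65 other pathway genes by role, 1 point per gene, red with and grey without a region within 1 kb of a TSS, and a black line at each group's median. All 5 genes of ligand processing and release are red, and the 9 Hedgehog genes split into 3 red and 6 grey points.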

How the data were processed

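BRG1 ChIPseq of wild-type CPs was read from a single list. Chromatin was crosslinked with disuccinimidyl glutarate and formaldehyde and cut with MNase. Per the paper, the authors used fastq-mcf for trimming and Bowtie for alignment of single-end reads to mm9. Reads of low mapping quality were removed, and enrichment was called in bins against input. The deposited values are positions in bp, namely a chromosome, a start and an end for each row. Tool versions and how the 2 ChIP libraries were combined are not given in the sources used here.

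From these positions, rows with the same coordinates were collapsed from 4791 to 3473 distinct regions, and starts are printed counted from 1. The number of rows is the one the paper states for CP sites, but the number of distinct regions is the one it states for cardiomyocyte sites, and how these relate is not known. Shares over distinct regions therefore rest on the reading that repeated rows name 1 CP region. Regions were set against GENCODE M1 and the mm9 sequence with pysam 0.24.0, pandas 2.3.3 and numpy 2.4.6 under Python 3.11.15, drawn with matplotlib 3.10.9, and words of 75 bases were counted over mm9 with numba 0.67.0. Any overlap with a promoter (1 kb either side of a TSS), a gene body or 100 kb on either side counted. Percentiles of regions are over distinct regions of the same kind (at promoters or not). In all percentiles, tied values were counted in part. RefSeq starts come from a promoter table of the assembly GRCm38.p6, and only the sequence was used: 31888 of 32851 promoters of 300 bases matched mm9 at exactly 1 place. The overlap step was tested on simulated data. No test between groups was made, since 1 list allows none. All 9 genes are named, and every region near them is accounted for. The Hedgehog genes, the lists of other pathway genes and the words searched were chosen with earlier results of these data known. Disp1 was not found under that symbol in GENCODE M1. A further pathway gene and a sequence are not reported here.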

Additional observations from a re-analysis of the deposited data

How the results depend on the processing

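In all, 6 counts and shares were recomputed under 40 alternatives, of which 2 (RefSeq starts) were added after seeing the data. Of the values, 24 were labelled as close to those reported and 16 as moved. The rule was loose for counts, where 2 or 4 in place of 3 was labelled close. It was strict for shares, which had to lie inside the Wilson interval of the reported share, so that 10.8% in place of 11.9% was labelled moved. The promoter count of 3 members went no lower than 2 (regions on 2 or more rows only, Ptch1 and Gli3) and no higher than 4 (windows of 2 kb or 5 kb, or RefSeq starts, which add Kif7). The share of all protein-coding genes moved from 11.9% to 12.9% with 5 kb, 7.99% with 1 kb upstream only, 10.8% with the most upstream end only and 3.2% with regions on 2 or more rows. Members with a body region fell from 4 to 1 (Kif7) without regions at the gene's own promoters, and to 2 on 2 or more rows. The Kif7 region that remained is a promoter region of 9330171B17Rik. Members with a nearby region rose from 5 to 8 within 250 kb and 9 within 1 Mb, and fell to 3 on 2 or more rows. Their regions numbered 18, 44 and 4 under the same settings, and 17 with each row counted, in place of 9. The share of regions with the GLI word rose from 0.346% to 7.52% for ACCACCC, 8.67% with 1 base free and 0.662% with 200 bp added on each side.

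No paired analysis was possible because 1 list holds both libraries without values per replicate, and no replicate was left out for the same reason. No stricter threshold of the authors was tried, and whether regions on 2 or more rows are the stronger ones is not known. Depth is unknown, so an absent region at Shh, Ihh, Gli1 or Gli2 sets no upper limit on binding there.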
